A study of Mus musculus with 18 samples.

Results

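Transcripts of 10 regulators of mitochondrial biogenesis and dynamics were followed in mouse liver: Ppargc1a, Ppargc1b, Esrra, Nrf1, Tfam, Mfn1, Mfn2, Opa1, Dnm1l and Pink1. They were chosen by symbol from 40840 genes in the deposited tables of read counts, with earlier results of these data known. No cutoff on their values was used, and all 10 passed the filter on low counts in both models. The livers were those of female C57BL/6 mice without ovaries, in 2 models of obesity. In diet-induced obesity (DIO) the animals were wild type and their food held 0.2% cholesterol and drew 45% of its calories from fat, whereas ob/ob animals are deficient in leptin and were kept on normal food. In each model the groups were PaPE-1 at 300 µg/kg per day, 17β-estradiol (E2) at 5 µg/kg per day, and vehicle, each released from a minipump for 6 weeks, with 3 libraries per group and 18 in all. PaPE-1 is a pathway-preferential estrogen, a ligand made to favour signalling by estrogen receptors outside the nucleus over their direct action on genes. All animals were ovariectomized, so vehicle livers stand for a low-estrogen state, and the animals' age was not given in the sources used here.

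Mitochondria are renewed by transcription and reshaped by fusion and fission. The coactivators PGC-1α (Ppargc1a) and PGC-1β (Ppargc1b) bind the nuclear receptor ERRα (Esrra) and nuclear respiratory factor 1 (Nrf1), which drive nuclear genes of respiration and Tfam, the factor that packages and transcribes mitochondrial DNA. In liver, PGC-1α is also known as a fasting signal for fatty acid oxidation and glucose production. The mitofusins Mfn1 and Mfn2 join outer membranes, Opa1 joins inner membranes and shapes cristae, Dnm1l encodes the fission GTPase DRP1, and the kinase PINK1 marks damaged mitochondria for removal by mitophagy.

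Promoter sequences are shown for the members in which a searched motif lay before the transcription start. RefSeq windows (GRCm38.p6) of 250 bases before to 50 bases after a start were found for 9 of the 10 genes, in 13 windows, and Ppargc1b had none. On both strands, 4 motifs were searched among 32851 windows. The estrogen response element GGTCANNNTGACC was in 0.07% of windows and the estrogen-related receptor element TNAAGGTCA, which holds the same GGTCA half-site, was in 1.28%. Neither set of letters was in a window of a member. The NRF-1 site GCGCNTGCGC was in 4.6% of windows, among them those of Opa1 and Pink1, and the ETS core CCGGAAG was in 8.86%, among them those of Tfam, Mfn1 and Dnm1l. Capitals mark the motif, on the strand of the gene.
Opa1, chr16:29579265-29579294 on the plus strand: gtggctccccGCGCATGCGCatgtcatccg
Pink1, chr4:138326297-138326316 on the minus strand: accgccccccGCGCTTGCGC
Tfam, chr10:71238075-71238101 on the minus strand: ctgccgcggaCCGGAAGtccgggcttc
Mfn1, chr3:32529428-32529454 on the plus strand: atccgaagcgCCGGAAGtagccgcccc
A match describes letters in the window and not a bound site. The windows of Ppargc1a, Esrra, Nrf1 and Mfn2 held none of the 4 motifs. On GRCm39, the build of the count tables, Ppargc1a spans chromosome 5 from 51611591 to 52273337, Opa1 chromosome 16 from 29398099 to 29481924, Mfn2 chromosome 4 from 147958043 to 147989527 and Dnm1l chromosome 16 from 16130092 to 16176902.

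Total counts per library lay between 16651616 and 21703791 in DIO liver and between 10470665 and 17021370 in ob/ob liver. After the filter, 13884 genes in DIO liver and 13433 genes in ob/ob liver were tested with edgeR's quasi-likelihood test and Benjamini-Hochberg adjustment over all of them, with an adjusted p of 0.05 as threshold. Of the cell marker lists, that of hepatocytes had the largest sum in every library. Its 9 genes, such as Alb and Apoa1, summed to at least 98930 CPM (counts scaled to the library's size) in DIO liver and 110771 CPM in ob/ob liver. Levels were compared between groups only within a model, since genotype, diet and the lane tags in the column names all differ between the models and cannot be told apart. The p-values rest on a spread between replicate libraries that was estimated from all 9 libraries of a model together and moderated across genes. Interactions used all 18 libraries. Each group held 3 libraries, and an exact test of 3 against 3 cannot give a two-sided p below 0.1.

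Per length (FPKM), Pink1 was the most abundant at a median of 82.7, with 69.3 in the lowest and 113 in the highest of 18 libraries. Mfn2 came next at a median of 22.6 FPKM (14.3 to 28.04), a range that overlapped those of Tfam (up to 17.2) and Opa1 (up to 14.6). Within every library Mfn2 was nonetheless above both. Tfam, Opa1, Mfn1, Esrra and Dnm1l had medians between 9.19 and 13.1 FPKM, and their ranges over libraries overlapped. The ranges alone thus gave no order among these neighbours, although Tfam was above Dnm1l within every library. The coactivators and Nrf1 were the least abundant, with medians of 0.989 FPKM for Ppargc1b, 0.701 FPKM for Ppargc1a and 0.561 FPKM for Nrf1, and these ranges overlapped too. Their values rest on 84 to 292 reads per library for Ppargc1a, 93 to 388 for Ppargc1b and 90 to 246 for Nrf1, against 1928 to 4780 for Pink1.

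**Figure D1:**
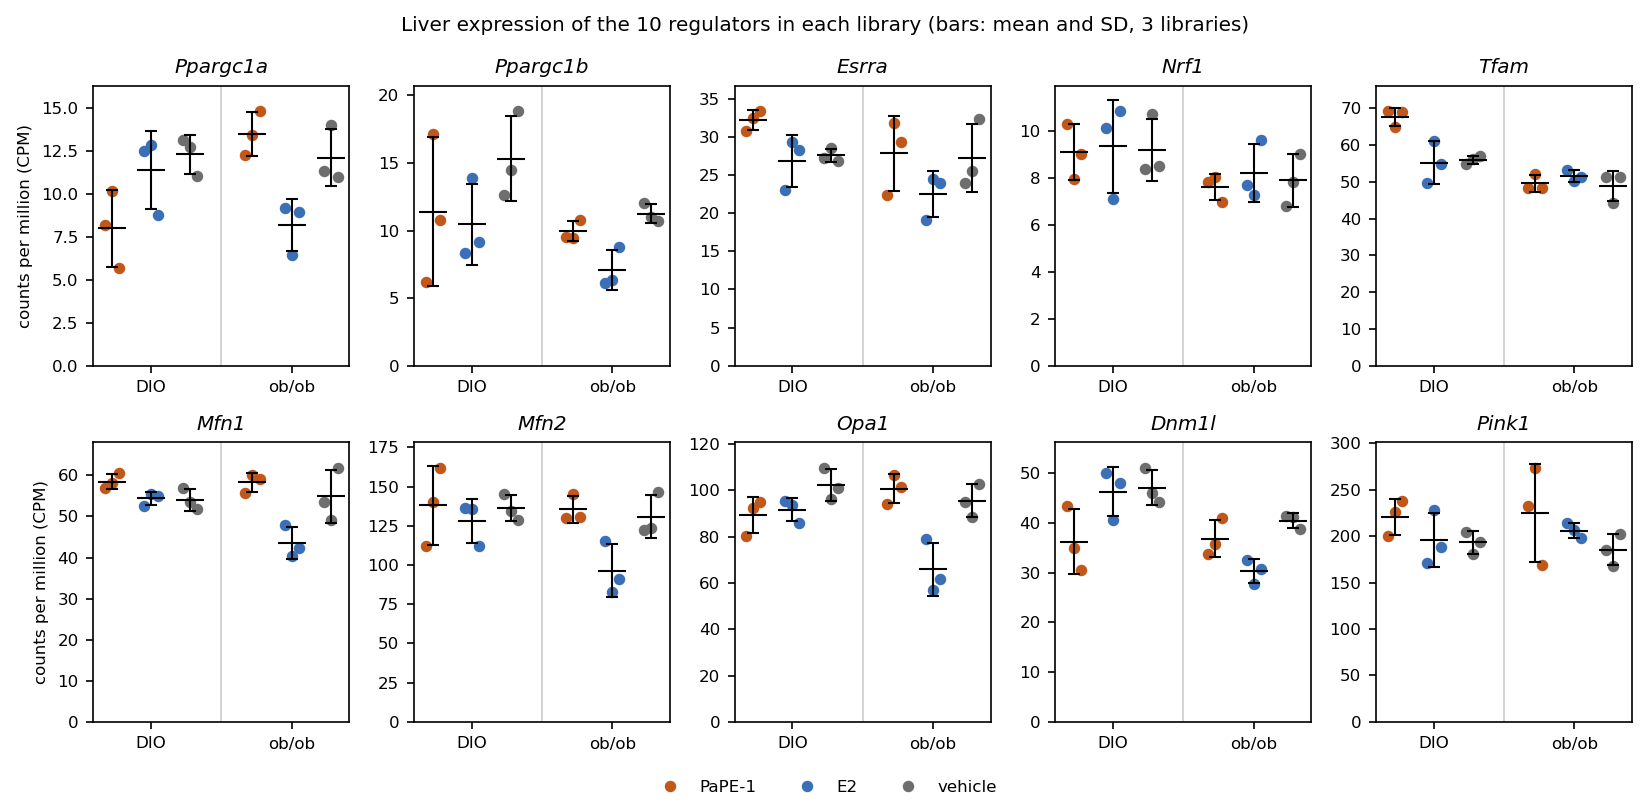
CPM of the 10 regulators in each of 18 liver libraries, by model and treatment (PaPE-1, E2 and vehicle from left to right). Points are libraries, bars are the mean and SD of 3 libraries, and each panel has its own axis from 0. In ob/ob liver the 3 E2 libraries lie below the 3 vehicle libraries for Ppargc1a, Ppargc1b, Mfn1, Mfn2, Opa1 and Dnm1l.

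In ob/ob liver, the clearest differences came with E2. Against vehicle, 5 of the 10 members fell (Ppargc1a, Ppargc1b, Mfn2, Opa1 and Dnm1l) and 0 rose, beside 12.3% of all tested genes that fell and 9.81% that rose. The 5 genes fell by 24.95% (Dnm1l) to 37.18% (Ppargc1b). In 6 members all 3 E2 libraries lay below all 3 vehicle libraries, which was so for 20.8% of all genes, and in 0 members did they lie above, against 20.7% of all genes. The median log2 fold change was -0.37 over the members and 0.01 over all genes tested. In whole liver, fewer cells of a type and less RNA per cell cannot be told apart.

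Among the regulators of biogenesis, both PGC-1 coactivators fell with E2 in ob/ob liver while the factors they act on did not pass the test. Ppargc1a had 9.18, 6.43 and 8.96 CPM in the E2 libraries L1, L12 and L19, against 11.3, 14.1 and 10.99 CPM in the vehicle libraries L3, L8 and L13 (log2 fold change -0.56, SE 0.17, adjusted p = 0.0312). Ppargc1b had 6.14, 6.30 and 8.76 CPM in the E2 libraries, against 12.1, 10.997 and 10.7 CPM in the vehicle libraries (-0.67, SE 0.17, adjusted p = 0.0141). For both genes the groups did not overlap, and L12 for Ppargc1a and L1 for Ppargc1b were lowest. Esrra averaged 22.5 ± 2.99 CPM with E2 and 27.3 ± 4.44 CPM with vehicle (SD, n = 3 each), a log2 difference of -0.28 (95% interval -0.62 to 0.06). For Nrf1 the log2 difference was 0.05 (-0.31 to 0.42) and for Tfam 0.08 (-0.15 to 0.30), and the groups overlapped for all 3 genes.

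Of the genes of membrane fusion and fission, Opa1, Mfn2 and Dnm1l passed the test and Mfn1 missed it by a small margin. Opa1 had 78.8, 56.8 and 61.8 CPM in E2 libraries L1, L12 and L19, against 95.1, 88.5 and 103 CPM in vehicle libraries L3, L8 and L13 (log2 fold change -0.54, SE 0.13, adjusted p = 0.0124). Mfn2 had 116, 82.7 and 91.2 CPM with E2, against 122, 124 and 146 CPM with vehicle (-0.44, SE 0.13, adjusted p = 0.0323). In both genes L1 was the E2 library nearest to vehicle, and it stayed below the lowest vehicle library. Dnm1l had 32.5, 27.7 and 30.8 CPM with E2, against 41.4, 41.2 and 38.7 CPM with vehicle (-0.41, SE 0.11, adjusted p = 0.0205). Mfn1 had 48.0, 40.3 and 42.3 CPM with E2, against 53.6, 49.2 and 61.9 CPM with vehicle (-0.34, SE 0.12, adjusted p = 0.0527). All 4 genes thus had groups of libraries that did not overlap, with the E2 library L1 and the vehicle library L8 close together for Mfn1. Pink1, the kinase of mitophagy, had 206 ± 8.37 CPM with E2 and 185 ± 16.8 CPM with vehicle (SD, n = 3 each), a log2 difference of 0.15 (95% interval -0.18 to 0.48).

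The 5 calls in ob/ob liver depended on single libraries and in part on gene length. Without the E2 library L12 none of the 5 passed, although all kept their sign and an unadjusted p under 0.05 (edgeR, log2 fold changes -0.34 to -0.59), and without L19 only Ppargc1b passed. Without the vehicle library L3, L8 or L13, 4 members passed in each case, and without L1 6 passed, Mfn1 among them. When each library's trend of expression on gene length was removed, Opa1, Ppargc1b and Dnm1l passed, while Ppargc1a (-0.41, adjusted p = 0.0893) and Mfn2 (-0.32, adjusted p = 0.111) did not.

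Markers of other cells moved with E2 in ob/ob liver. Of 10 liver endothelial markers, 9 rose and 0 fell, and their sum was 323 to 403 CPM with E2 and 193 to 214 CPM with vehicle. All 8 neutrophil and marrow markers that could be tested, of 9, rose, with sums of 89.997 to 357 CPM with E2 and 5.38 to 6.37 CPM with vehicle. Of 9 Kupffer cell markers 4 rose, and of 9 hepatocyte markers 5 rose and 1, Cps1, fell, with hepatocyte sums of 169623 to 188479 CPM with E2 and 110771 to 141110 CPM with vehicle. L1, the E2 library with the highest CPM of Ppargc1a, Mfn1, Mfn2, Opa1 and Dnm1l, also had the lowest endothelial and neutrophil sums of the 3, while for Ppargc1b L1 was the lowest E2 library. The part of these shifts in the members' values was not tested.

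With PaPE-1, no member of ob/ob liver differed detectably from vehicle. None passed an adjusted p of 0.05 against vehicle, and 0 of 13433 genes did so in either direction (0% higher and 0% lower, edgeR; DESeq2's Wald test and limma voom also gave 0). At an unadjusted p under 0.05, 0 members were called, beside 0.998% of genes higher and 1.65% lower. The largest difference was that of Pink1, with 233, 274 and 169 CPM in the PaPE-1 libraries L5, L6 and L16, against 185, 168 and 202 CPM in the vehicle libraries L3, L8 and L13 (log2 difference 0.28, 95% interval -0.05 to 0.61). L16 was as low as the vehicle libraries. Without L16 the difference of Pink1 was 0.45, with an unadjusted p under 0.05 and an adjusted p of 0.456 (edgeR), and without L6 it was 0.12. Of cell markers, all 5 tested erythroid ones were higher at an unadjusted p under 0.05 (edgeR), and 0 passed after adjustment. At that p 1 endothelial and 1 cholangiocyte marker were lower. Erythroid sums were 2664, 1817 and 378 CPM in L5, L6 and L16, against 272 to 512 CPM with vehicle. The part of these markers in the members' values was not tested. Over the 10 members the 95% intervals of the log2 difference reached from -0.53 for Ppargc1b to 0.61 for Pink1, so changes within these limits are not excluded.

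PaPE-1 and E2, given at different doses, left different levels of 4 members in ob/ob liver. Of the 10 members, 4 were higher with PaPE-1 than with E2 and 0 lower, beside 10% of all genes higher and 7.45% lower. Ppargc1a had 12.3, 13.4 and 14.8 CPM in the PaPE-1 libraries, against 9.18, 6.43 and 8.96 CPM in the E2 libraries (log2 fold change 0.72, SE 0.17, adjusted p = 0.0125). Opa1 had 94.2, 106 and 101 CPM with PaPE-1, against 78.8, 56.8 and 61.8 CPM with E2 (0.61, SE 0.13, adjusted p = 0.00897). In 6 members (Ppargc1a, Ppargc1b, Mfn1, Mfn2, Opa1 and Dnm1l) the PaPE-1 libraries lay entirely above the E2 libraries, beside 19.1% of all genes. In 0 members did they lie entirely below, beside 18.2% of all genes. The mitofusins followed, with Mfn2 at 130, 145 and 131 CPM with PaPE-1, against 116, 82.7 and 91.2 CPM with E2 (0.49, adjusted p = 0.0254). Mfn1 had 55.7, 60.1 and 59.1 CPM with PaPE-1, against 48.0, 40.3 and 42.3 CPM with E2 (0.42, adjusted p = 0.0256). Ppargc1b (0.49, adjusted p = 0.0558) and Dnm1l (0.28, adjusted p = 0.0967) did not pass. The same E2 libraries enter this comparison and the one against vehicle, so the 2 are not independent. Cell markers moved here too. With PaPE-1, 10 of 10 endothelial, 5 of 9 hepatocyte, 5 of 8 neutrophil and marrow, 3 of 9 Kupffer cell and 2 of 5 lymphocyte markers were lower than with E2, and 0 of these were higher. Endothelial sums were 177 to 215 CPM with PaPE-1 and 323 to 403 CPM with E2, and neutrophil sums 2.94 to 61.2 CPM with PaPE-1 and 89.997 to 357 CPM with E2. Their part in the members' values was not tested. Without L12 none of the 4 passed, and without the PaPE-1 library L16 only Opa1 did. Without L6 Opa1 and Ppargc1a passed, and without L19 Opa1, Ppargc1a and also Ppargc1b. With each library's length trend removed, Mfn1, Opa1 and Ppargc1a passed and Mfn2 did not.

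**Figure D2:**
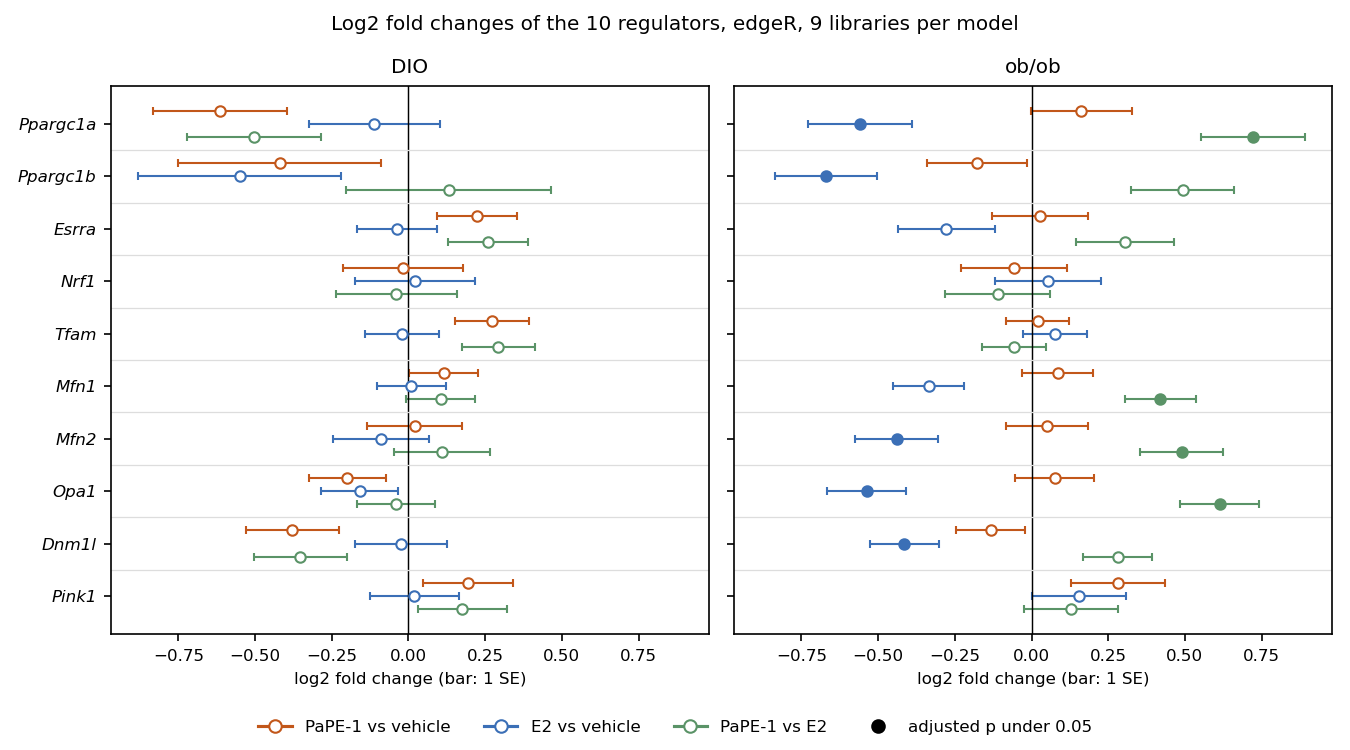
Log2 fold changes of the 10 regulators (rows) in DIO liver (left) and ob/ob liver (right), for each ligand against vehicle and for PaPE-1 against E2. Bars are 1 SE from edgeR's fit to 9 libraries per model, and filled points passed an adjusted p of 0.05. Filled points are in the ob/ob panel alone, 5 for E2 against vehicle, all below 0, and 4 for PaPE-1 against E2, all above 0.

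In DIO liver, no member passed the test with PaPE-1 against vehicle. No gene of 13884 passed an adjusted p of 0.05 in either direction (0% higher and 0% lower, edgeR; limma voom also gave 0), while DESeq2's Wald test called 530 higher and 222 lower and none of the members. At an unadjusted p under 0.05, 1 member was higher, beside 11.4% of all genes, and 2 were lower, beside 9.68%. The libraries of 3 members lay entirely above vehicle (Esrra, Tfam and Mfn1), beside 16.4% of genes, and those of 3 entirely below (Ppargc1a, Opa1 and Dnm1l), beside 15.8%. The median log2 difference was 0.00065 over the members and -0.03 over all genes. On a set of 10 these counts lie within 2 genes of what the shares of all genes would give. Without WP24, 0 members had an unadjusted p under 0.05 (edgeR), and without WP12 153 of all genes passed after adjustment, 0 of them members.

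Ppargc1a had 8.18, 10.2 and 5.67 CPM in the PaPE-1 libraries WP11, WP12 and WP24, against 13.2, 12.7 and 11.1 CPM in the vehicle libraries WV7, WV8 and WV9 (log2 difference -0.61, SE 0.22, adjusted p = 0.146). Dnm1l had 43.3, 34.9 and 30.5 CPM with PaPE-1, against 51.1, 46.0 and 44.3 CPM with vehicle (-0.38, SE 0.15, adjusted p = 0.184). WP24 was lowest for both genes. Tfam had 69.2, 64.9 and 69.1 CPM with PaPE-1, against 54.9, 56.2 and 57.0 CPM with vehicle (0.27, SE 0.12, adjusted p = 0.219). Opa1 averaged 89.1 ± 7.78 CPM with PaPE-1 and 102 ± 6.78 CPM with vehicle (SD, n = 3 each; log2 difference -0.20, SE 0.13, adjusted p = 0.379). Esrra (0.22, adjusted p = 0.342), Mfn1 (0.11, adjusted p = 0.583), Pink1 (0.19), Mfn2 (0.02), Nrf1 (-0.02) and Ppargc1b (-0.42, SE 0.33) did not pass either. Ppargc1b spread widely among the PaPE-1 libraries, with 6.21 CPM in WP11 and 17.2 CPM in WP12, and its log2 difference was -0.12 without WP11 and -0.85 without WP12.

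The DIO values also moved when the trend of expression on gene length was removed. The exons of Ppargc1a span 15980 bases in the tables and those of Nrf1 14628, against 2429 for Pink1 and 4020 for Tfam. With each library's length trend removed, the differences of Ppargc1a (-0.30) and Dnm1l (-0.24) no longer had an unadjusted p under 0.05, that of Opa1 changed sign to 0.057, and Tfam (0.38, adjusted p = 0.181) and Mfn1 (0.26, adjusted p = 0.296) were the 2 members under it (edgeR). Hepatocyte marker sums were 123363 to 149672 CPM with PaPE-1 and 98930 to 111112 CPM with vehicle in DIO liver, and their part in the members' values was not tested.

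With E2 no member differed detectably from vehicle in DIO liver. Of the 10 members 0 passed an adjusted p of 0.05, as did 0% of genes higher and 0% lower (edgeR; limma voom 0, DESeq2's Wald test called 17 genes higher and 5 lower, 0 of them members), and 0 had an unadjusted p under 0.05, beside 2.72% of genes higher and 2.5% lower. Ppargc1b stood furthest from 0, with 8.32, 13.9 and 9.15 CPM in the E2 libraries WE3, WE14 and WE18, against 12.6, 14.5 and 18.8 CPM in the vehicle libraries (log2 difference -0.55, SE 0.33, 95% interval -1.28 to 0.18). WE14 lay among the vehicle libraries for this gene, and without it the difference was -0.81, with an unadjusted p under 0.05 and an adjusted p of 0.450 (edgeR). Without WE14, 133 of all genes passed, 0 of them members. Of 9 Kupffer cell markers 7 were higher with E2 at an unadjusted p under 0.05 and 0 passed after adjustment, and their part in the members' values was not tested. The intervals of the other 9 members lay within -0.57 for Ppargc1a and 0.44 for Nrf1. In 1 member, Opa1 (-0.16), the E2 libraries lay entirely below vehicle, beside 5.52% of all genes. In 0 members did they lie entirely above, beside 4.54% of all genes. Set against E2, PaPE-1 left 0 members past an adjusted p of 0.05, beside 0.0216% of genes higher and 0.0144% lower, with limma voom also at 0 members. At an unadjusted p under 0.05, 1 member was higher (Tfam, 0.29, beside 8.41% of genes) and 2 were lower (Ppargc1a, -0.50, and Dnm1l, -0.35, beside 8.62%).

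The effects of a ligand in the 2 models were compared directly as interactions over 18 libraries, with 14171 genes tested. No member passed an adjusted p of 0.05 for either ligand (edgeR, with DESeq2's Wald test and limma voom also at 0 members). The calls of E2 against vehicle in ob/ob liver are thus not shown to differ from the DIO values. The difference of PaPE-1 from E2 was not tested between the models. Among the members called for it in ob/ob liver, Ppargc1a had 0.72 there and -0.50 in DIO liver, and Opa1 0.61 and -0.04. Mfn2 had 0.49 and 0.11, and Mfn1 0.42 and 0.11. For PaPE-1, 0% of all genes passed higher and 0% lower, and at an unadjusted p under 0.05 there was 1 member higher (4.84% of genes) and 0 lower (7.29%). That member was Ppargc1a, whose log2 difference was 0.76 more positive in ob/ob than in DIO liver (SE 0.28, adjusted p = 0.308). For E2, 0.00706% of genes passed in each direction, and at an unadjusted p under 0.05 there were 0 members higher (6.94% of genes) and 3 lower (9.96%). These were Mfn1 (-0.36, SE 0.15), Opa1 (-0.39, SE 0.18) and Dnm1l (-0.40, SE 0.18), with adjusted p of 0.236 to 0.271.

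Other genes of the same processes were read from 8 lists. Against vehicle, 0 of their tested genes passed in DIO liver with either ligand or in ob/ob liver with PaPE-1 (edgeR; limma voom also gave 0). DESeq2's Wald test gave 0 as well, except with PaPE-1 in DIO liver, where 8 list genes were higher (Parl, Phb2, Fis1, Bnip3, Gabarap, Tomm7, Cox4i1 and Tomm22) and 1 lower (Gabpb2). With PaPE-1 in DIO liver edgeR itself called 9 list genes higher and 2 lower when fitted to the compared groups alone. Without a filter on low counts it called 1 higher, Tomm7. In the reported edgeR fit of PaPE-1 against vehicle in DIO liver, 13 of 14 markers of mitochondrial content lay above 0. Of these markers 5 had an unadjusted p under 0.05, and the median log2 difference was 0.31 beside -0.03 for all genes. Their sums were 2584 to 2823 CPM with PaPE-1 and 2050 to 2558 CPM with vehicle, which did not overlap but came close. The biogenesis partners there had a median of -0.32, and an unadjusted p under 0.05 was reached by 3 above 0 and 6 below 0. Of all genes 11.4% were higher and 9.68% lower at that p, and 16.4% had PaPE-1 libraries entirely above vehicle. The part of gene length in these list values was not tested. With E2 in ob/ob liver each list held genes that passed. Of 23 biogenesis partners and upstream signals 1 rose and 3 fell, with a median log2 fold change of -0.17 beside 0.01 for all genes. Of all tested genes 12.3% fell and 9.81% rose, and the shares of the biogenesis, mitophagy and mitochondrial content lists that fell are near that share. The biogenesis genes that fell were Prkaa2 (-0.65, adjusted p = 0.0176) and Prkaa1 (-0.55), the catalytic subunits of the energy sensor AMPK, and Creb1 (-0.48), a transcription factor that acts on Ppargc1a. Sirt3, the main mitochondrial deacetylase, rose (0.43). Of 23 genes of mitochondrial DNA upkeep 1 fell, Lrpprc (-0.34), which stabilizes mitochondrial mRNAs, with a median of 0.10.

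In the reported fit, calls among the partners of Opa1 were all lower, and those among the partners of Dnm1l and Pink1 went in both directions. Another partner of Opa1, Micos13, was called higher without a filter on low counts and in a fit to the compared groups alone. Of 21 genes of fusion, inner membrane proteases and cristae 5 fell and 0 rose, and their median was 0.01. They were Miga1 (-0.94, adjusted p = 0.0109), which promotes outer membrane fusion, the inner membrane proteases Afg3l2 (-0.40) and Yme1l1 (-0.53), of which the second cleaves OPA1, Slc25a46 (-0.57) and the cristae protein Immt (-0.35). Of 15 fission genes 3 fell, namely Senp5 (-0.63), a SUMO protease that acts on DRP1, and the actin regulators Inf2 (-0.40) and Spire1 (-1.21), while Mtfp1, an inner membrane protein of fission, rose to 32.9 ± 3.69 CPM with E2, against 17.6 ± 3.49 CPM with vehicle (SD, n = 3 each; 0.90, adjusted p = 0.00922). The fission median was -0.05. Of 24 mitophagy genes 3 fell (Usp8, Usp15 and Bcl2l13, -0.37 to -0.39) and 1 rose (Tomm7, 0.42, an outer membrane import subunit that stabilizes PINK1), with a median of -0.06.

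Mitochondrial transport genes gave the largest share of calls, 3 of 6, all lower, with a median of -0.26. Kif5b, the kinesin that carries mitochondria along microtubules, had 22.7 ± 8.09 CPM with E2 and 51.8 ± 5.95 CPM with vehicle (SD, n = 3 each; log2 fold change -1.19, adjusted p = 0.00556), its adaptor Trak2 changed by -1.14 and the adaptor GTPase Rhot1 by -0.37. Of 12 liver genes known as PGC-1α targets 3 fell and 0 rose, with a median of -0.20. Cpt1a, which admits fatty acids to mitochondria, had 299.96 ± 50.1 CPM with E2 and 495 ± 20.4 CPM with vehicle (SD, n = 3 each, log2 fold change -0.72, edgeR adjusted p = 0.00715). Acadm (-0.56) and Idh3a (-0.34) also fell. Of 14 markers of mitochondrial content 2 fell (Hspa9, -0.53, and Tomm20, -0.45) and 1 rose (Hspe1, 0.37), with a median of -0.02, and the sum of the 14 was 2595 to 2869 CPM with E2 and 2756 to 2915 CPM with vehicle. Without L12, 0 genes passed in 6 of the 8 lists, 2 passed in the transport list and 1 among PGC-1α targets. Without L13 or L19, mitophagy genes past the test numbered 0, against 4 in all libraries, and fusion genes 1, against 5, and biogenesis partners numbered 1, against 4, without L3, L13 or L19. DESeq2's Wald test called 9 mitophagy genes. With the length trend removed 3 fusion genes passed, Miga1, Opa3 and Spg7, while Afg3l2, Yme1l1, Slc25a46 and Immt did not. The 2 biogenesis partners that passed were Prkaa1 and Prkaa2. Creb1, Sirt3, Inf2, Spire1, Usp15, Bcl2l13, Tomm7, Rhot1 and Hspe1 did not pass in that fit. Among genes of mitochondrial DNA upkeep Lrpprc no longer passed, and Polg and Primpol rose.

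**Figure D3:**
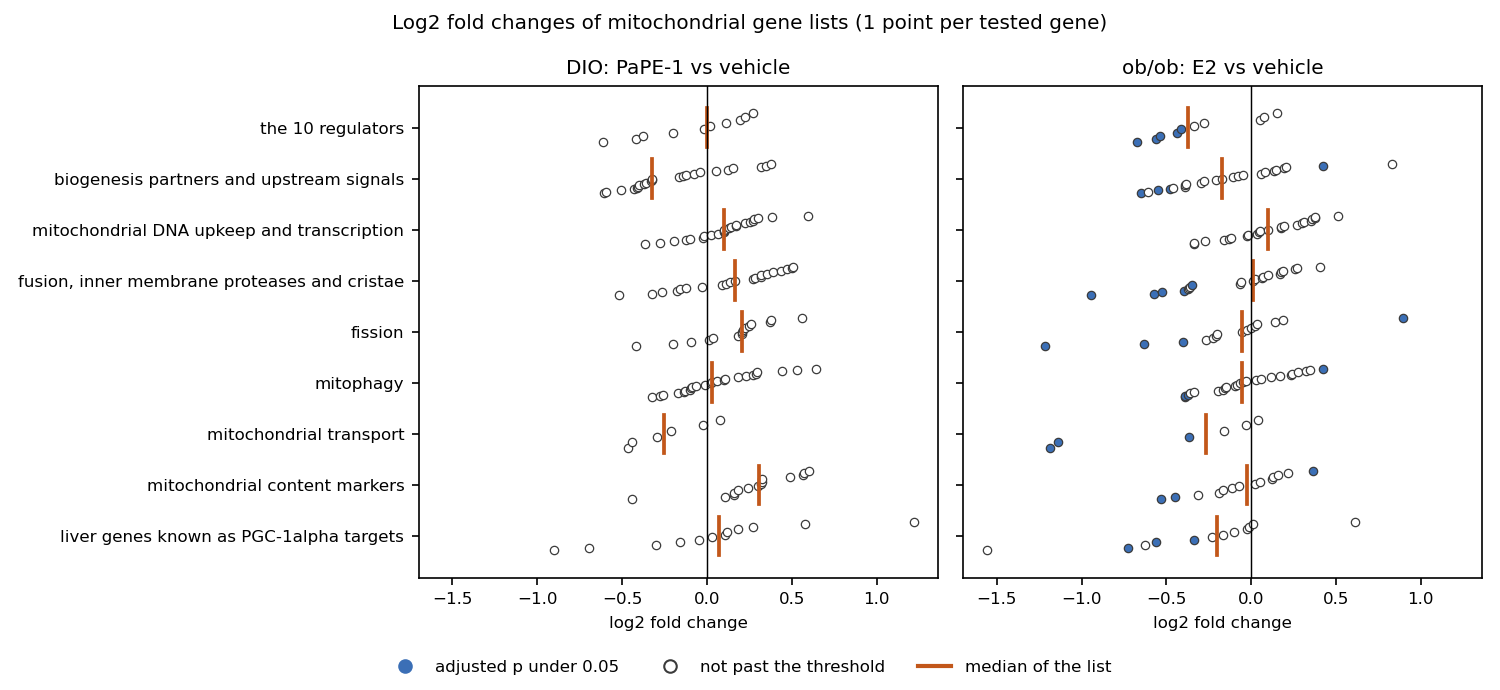
Log2 fold changes of the 10 regulators and of 8 other mitochondrial gene lists in DIO liver with PaPE-1 (left) and ob/ob liver with E2 (right), each against vehicle. Each point is a tested gene, blue where its adjusted p was under 0.05, and the orange line is the list's median. Blue points occur in the ob/ob panel alone, where the 10 regulators have the lowest median, -0.37.

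Set side by side without a test, members of the fusion machinery varied together. Over the 18 libraries, with each gene centred within its model, log2 CPM of Mfn2 and Opa1 had a Pearson r of 0.91, Mfn1 and Mfn2 of 0.85 and Mfn1 and Opa1 of 0.84. Ppargc1a varied with Dnm1l (r = 0.75), the fission gene, more than with Ppargc1b (0.52). Tfam ran opposite to Dnm1l (-0.66) and Ppargc1a (-0.59), and Nrf1 ran between -0.41 with Ppargc1b and 0.12 with Dnm1l. The libraries share treatments and scaling, so these values describe the set and include the group differences above. Of 13102 genes compared, Mmut, a mitochondrial enzyme of propionate breakdown, was most like Opa1 (r = 0.97), Ythdf3 most like Dnm1l (0.95), Marchf8 most like Mfn2 (0.92), Mrps9, of the mitochondrial ribosome, most like Tfam (0.92), Grsf1 most like Mfn1 (0.92) and Myo6 most like Ppargc1a (0.89).

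**Figure D4:**
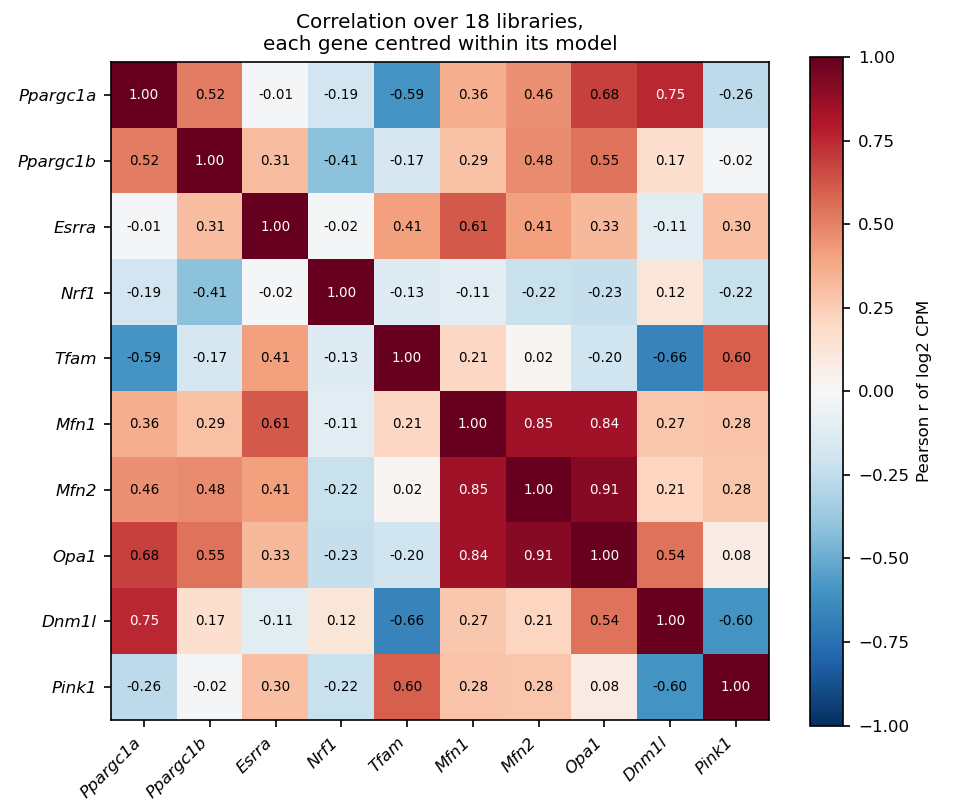
Pearson correlation of log2 CPM between the 10 regulators over 18 libraries, each gene centred within its model. Red cells are positive and blue cells negative. The block of Mfn1, Mfn2 and Opa1 holds r of 0.84 to 0.91.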

How the data were processed

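Liver RNA-seq counts of 18 libraries were used, 3 per group as the study states, although the sample labels speak of 2 sequenced per group. The authors aligned reads with STAR (2.7.6a) and deposited raw counts per gene, made with featureCounts (2.0.0, strand option 2) on RefSeq genes of GRCm39, per the file headers and labels; the methods of the paper name TopHat and StrandNGS instead, and the headers were followed. They also deposited DESeq2 results with fold changes, p-values and normalized counts, which were not used here.

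The software was R (4.3.3), with the packages DESeq2 (1.42.0), limma (3.58.1) and edgeR (4.0.16). Genes kept by filterByExpr were scaled by TMM and tested by edgeR's robust quasi-likelihood test in 1 fit per model, with 9 libraries each. PaPE-1 and E2 were compared with vehicle and with each other, and PaPE-1 and E2 effects between models as interactions in a fit to 18 libraries. Adjusted p is Benjamini-Hochberg over all genes tested, and the threshold was 0.05. CPM were scaled by TMM, FPKM used the exon length in the tables, and log2 CPM a prior count of 2. Depths, given with the results, limit the precision of the genes with few reads. Replicate libraries differed by more than sampling noise, and replicate numbers pair no samples.

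Other settings were no filter, at least 10 counts in every library, DESeq2 size factors, limma voom, DESeq2's Wald test, the length trend of each library removed (loess, span 0.5), a fit to only the 2 groups compared, and each library left out in turn. The length trend with DESeq2 size factors was added, and WE14 singled out, after the data were seen. All members were named, and of every other list up to 4 genes with the smallest adjusted p (Immt, a further such gene, was named after its value was seen), or the 2 genes most like a member. Some list genes that passed only under another setting were named with that setting. Members and lists were chosen with earlier results of these data known. The test steps were checked on simulated data.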

Additional observations from a re-analysis of the deposited data

How the results depend on the processing

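Of 1090 member values recomputed under the alternatives, 29 lost a call and 5 gained one, all in the ob/ob comparisons of E2 with vehicle and of PaPE-1 with E2, and the cause was not tested. Opa1 in DIO liver with PaPE-1 against vehicle changed sign, to 0.057, with the length trend removed. A further 60 values that lay within 1 SE of 0 changed sign and passed in neither fit, 55 of them in fits that left out a library. Members past the threshold with E2 against vehicle in ob/ob liver numbered 3 with the length trend removed, with TMM and with DESeq2 size factors alike, and 0 to 6 as libraries were left out. With PaPE-1 against E2 they numbered 0 to 4 as libraries were left out, 3 with the length trend removed and 5 with voom. In DIO liver, in the interactions and with PaPE-1 against vehicle in ob/ob liver no alternative gave a member past the threshold.

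Counts over all genes in DIO liver were 0, 0 and 5 as reported (PaPE-1 and E2 against vehicle, PaPE-1 against E2). With PaPE-1 against vehicle they were 752 with DESeq2's Wald test, 385 without a filter, 773 with the compared groups alone and 0 to 153 with libraries left out (153 without WP12). With E2 against vehicle they were 22 with the Wald test, 1 without a filter and 0 to 133 (133 without WE14). With PaPE-1 against E2 they were 228 with the Wald test, 0 with voom, 56 without a filter, 1 with the length trend removed, 2 with the compared groups alone and 0 to 796 (796 without WE14). In ob/ob liver 1 gene passed without a filter with PaPE-1 against vehicle and 0 to 6 with libraries left out, 778 to 3328 with E2 against vehicle (2972 as reported) and 491 to 2844 with PaPE-1 against E2 (2344 as reported), lowest without L12 in both. Interactions gave 119 genes for PaPE-1 and 338 for E2 with the Wald test, 1 for E2 with voom, and 0 to 60 and 0 to 831 with libraries left out. No paired analysis was possible because the columns carry no shared replicate numbers. At 84 to 292 reads per library, Ppargc1a is among the members whose depth limits the precision most.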
